A study of Oryctolagus cuniculus with 134 samples.

Results

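The data described here are the mitral valve (MV), pulmonary valve (PV) and tricuspid valve (TV) libraries of rabbits fed a lard-enriched diet (Lard) or standard chow (Ctrl), chosen by the tissue code and the diet in the names of the count columns. They number 41 of the 134 RNA-seq libraries of the series, which covered the aorta (Ao) and all 4 heart valves, the aortic valve (AoV) included, of 27 rabbits under 4 treatments. The study compared diets, with and without cardiac irradiation, as rabbit models of vascular and valvular calcification. The comparison of Lard with Ctrl in these 3 valves asks whether the diet altered transcription outside the aorta and the aortic valve.

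All 14 rabbits were male New Zealand White animals whose protocol began at 12 weeks of age and lasted 16 weeks. The 7 Ctrl rabbits received chow alone. The 7 Lard rabbits received a diet with 5% lard and were also given vitamin D2 for the first 15 days, at 25000 U per day for each 2.5 kg of body weight. No vitamin D2 was given to Ctrl, and no group given vitamin D2 with chow was analysed here, so lard and vitamin D2 cannot be told apart. All 7 Ctrl rabbits carry a number that starts with L08 and all 7 Lard rabbits a number that starts with L09. What this number records is not given in the sources used here, so anything that goes with it cannot be told apart from the diet. The hour at which the tissues were taken is likewise not given.

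Each library came from a single valve of a single rabbit. The pooled test took the valves of a rabbit as correlated, with 1 correlation of 0.226 for all genes, so for a gene whose valves agree more closely within a rabbit its SE and p are too small. For the pooled comparison, the counts over all genes and the values of some genes from a test with 1 mean per rabbit are given beside it. Each valve was sampled in 7 rabbits per diet, except MV of Ctrl, which was sampled in 6, so 13 rabbits gave all 3 valves and Ctrl rabbit L08256 gave PV and TV. Libraries were made from 10 ng of total RNA and held between 13980425 and 44450064 counts, with a median of 17498901. Levels are given as CPM, the counts of a gene scaled to a common library size. At a level of 1 CPM the median library holds 17.5 reads of a gene, a counting error of 23.9%, and at 10 CPM the counting error is 7.56%.

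Heart valves are thin leaflets built by valve interstitial cells, which make collagens, proteoglycans and elastic fibres, and covered by endothelium. Calcification of a valve or artery is known to go with osteogenic genes such as RUNX2, ALPL, SPP1 and BMP2 and to be held back by inhibitors such as MGP and ENPP1. Almost every tissue also runs a circadian clock, in which ARNTL (BMAL1) and its partners CLOCK and NPAS2 switch on their own repressors, the PER and CRY proteins and the nuclear receptors NR1D1 and NR1D2.

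All 41 libraries held the genes of valve interstitial cells at high levels. Summed over VIM, POSTN, DCN, LUM and PRRX1, these genes took 6944 to 23653 CPM. Endothelial markers (PECAM1, VWF, CDH5) summed to 39.6 to 1143 CPM, and macrophage markers (CSF1R, CD163, CD68, ITGAM) to 72.8 to 244.4 CPM. The T cell marker CD2 did not exceed 0.825 CPM in any library. Heart muscle was present in very unequal amounts: MYH7, the slow myosin heavy chain, ran from 9.30 to 31005 CPM.

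3 libraries went against their valve label. TBX5, a transcription factor of the atria and inflow part of the heart, lay at 23.5 to 52.1 CPM in the 13 MV libraries and at 23.2 to 110 CPM in the other 12 TV libraries, but at 0.0608 to 2.76 CPM in the other 13 PV libraries. ISL1, a factor of the outflow tract, showed the opposite order, with 9.18 to 14.6 CPM in PV and at most 0.451 CPM in MV and TV. In Lard rabbit L09686, library L271, labelled PV, held TBX5 at 37.3 CPM and ISL1 at 0.0934 CPM, and library L272, labelled TV, held TBX5 at 0.0691 CPM and ISL1 at 12.9 CPM.

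The third was library L168, labelled TV of Ctrl rabbit L08256. Its TBX5 (37.1 CPM) and ISL1 (0 CPM) lay within the TV range, but the atrial myosin light chain MYL4 was at 41.8 CPM against 174.8 to 1303 CPM in the other 12 TV libraries. Its profile over the 2000 most variable genes correlated at 0.822 with AoV, 0.817 with MV and 0.535 with TV. Over all 41 libraries, 35 were closest in this measure to the valve they are labelled as. Besides the 3 above, Ctrl libraries L183 and L241, labelled MV, and L200, labelled PV, were closest to TV, by small margins. L183 correlated at 0.899 with TV and 0.844 with MV, L241 at 0.878 and 0.872, and L200 at 0.883 with both TV and PV. The labels were kept as deposited. Calls that change without L168, L271 and L272 are given both ways below.

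**Figure D1:**
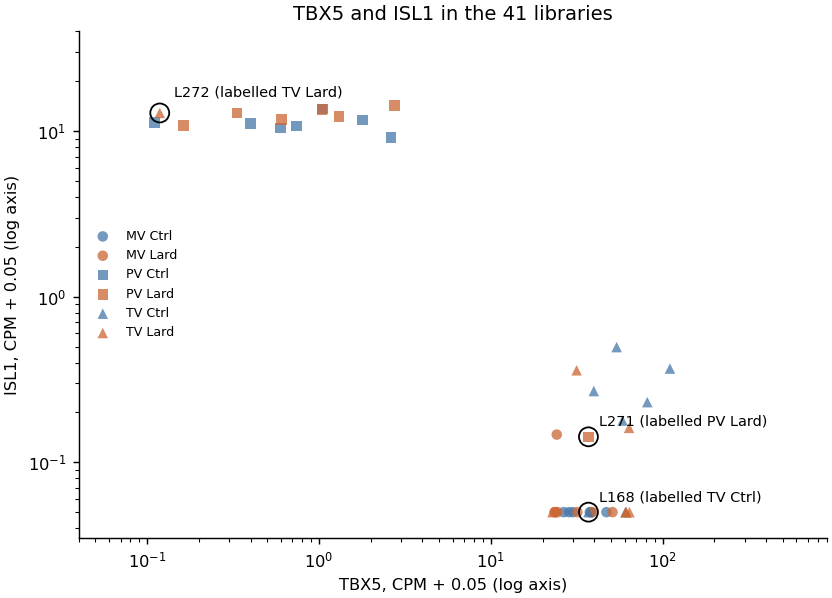
TBX5 (horizontal) and ISL1 (vertical) in CPM plus 0.05, on log axes, for each of the 41 libraries, with the valve as the shape and the diet as the colour. PV libraries form a group with high ISL1, MV and TV a group with high TBX5, and the library labelled PV (L271) and the library labelled TV (L272) of rabbit L09686 each lie in the other group.

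No gene passed the test in the pooled comparison of Lard with Ctrl over the 3 valves. Among the genes with a small p were components of the circadian clock (ARNTL higher, and HLF, CIART, NR1D1 and NR1D2 lower on average on Lard), the class I myosin MYO1E, the zinc finger gene ZNF605, and the calcification inhibitor MGP. MGP had a larger p than SYT6, FMO1, SELENBP1, CNTN4 and ARSG, which are given below. Of 15250 genes tested with limma-voom, with the valve as a factor and the rabbit as the correlated unit, 0 had a Benjamini-Hochberg adjusted p under 0.05. The smallest adjusted p was 0.0584. At an unadjusted p under 0.05 there were 514 genes, 3.37% of those tested, with 298 higher and 216 lower. edgeR's quasi-likelihood test on counts summed per rabbit also called 0 genes at an adjusted p under 0.05 and DESeq2 on the same sums called 2. With limma on 1 mean per rabbit (14 values) 0 genes passed, the smallest adjusted p was 0.9998, and 346 genes (2.27%) had an unadjusted p under 0.05. Of the genes named by rule and of the clock genes with a pooled unadjusted p under 0.05, NFIL3, NPAS2, BMP6, ACSL3, OAS1, BTG2, NDRG3, PLA2G7 and STK19 had one above 0.05 on rabbit means, from 0.0555 for BTG2 to 0.117 for NPAS2. The reverse held for ALAS2, HLA-DPB1, HILPDA, ALPL and DUSP1, whose pooled unadjusted p was above 0.05. On rabbit means theirs ran from 0.00563 for ALAS2 to 0.0470 for DUSP1 (limma).

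The count of 0 rested on small margins. The same valve contrast in a fit of all 5 tissues called 4 genes, among them MYO1E and ZNF605. Without Ctrl rabbit L08256 the pooled test called 9 genes, without Lard rabbit L09695 11, without Lard rabbit L09362 5 and without Ctrl rabbit L08719 1, while each of the other 10 rabbits could be left out with a count of 0. Without library L168 alone it called 5, without L168, L271 and L272 it called 1, and without L271 and L272 it called 0.

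The size of change that these libraries could show was moderate. For 9702 genes, 63.6% of those tested, the 95% interval of the pooled fold change lay inside 1.5-fold in both directions, and for 84.9% inside 2-fold. These intervals use the 1 correlation of 0.226, so they are too narrow for genes whose valves agree more closely within a rabbit. Of the 13024 genes with a mean of at least 1 CPM, 74.2% had an interval inside 1.5-fold. In only 4 genes (0.0262% of those tested) did the 7 Lard rabbits not overlap the 7 Ctrl rabbits, when each rabbit was given the mean of its valves. These were ACP6, a lysophosphatidic acid phosphatase (log2 fold change -0.36), the small RNAs SNORD121A (0.46) and RNU6ATAC39P (-0.44), and the gene ENSOCUG00000037956 (0.77), which has no symbol in the files. They were named after their values were seen. Without L168, L271 and L272 the number was 3.

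Of the 30 gene lists, the clock genes held the most members with an unadjusted p under 0.05. Of the 15 clock genes tested, 3 were higher and 6 lower on Lard at an unadjusted p under 0.05, against 1.95% and 1.42% of all genes, and none passed the adjusted test. On rabbit means 1 was higher (ARNTL) and 6 lower, against 1.37% and 0.898% of all genes, and NFIL3 and NPAS2 did not pass (unadjusted p of 0.0804 and 0.117, limma). The median log2 fold change of the 15 was -0.35 against 0.00456 over all genes, and -0.20 without L168, L271 and L272. 6 of the 15 were among the 100 genes with the smallest p.

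ARNTL, the activator at the core of the clock, lay in MV between 3.93 and 14.8 CPM in Ctrl (median 7.39, n = 6) and between 4.74 and 59.6 CPM in Lard (median 26.2, n = 7). In PV it lay between 4.41 and 35.8 CPM in Ctrl (median 7.75) and between 5.94 and 68.0 CPM in Lard (median 30.7). In TV the ranges were 3.37 to 30.7 CPM (median 9.64) and 7.59 to 68.1 CPM (median 30.3). The Lard median was above the Ctrl median in each valve, and the ranges overlapped in each. The pooled log2 fold change of ARNTL was 1.42 ± 0.35 (SE; limma-voom, adjusted p = 0.358), and on rabbit means 1.32 ± 0.51 (SE; limma, unadjusted p = 0.0200).

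NR1D1 (REV-ERB alpha), which represses ARNTL, had its Lard median below its Ctrl median in each valve. In MV it lay between 33.4 and 93.2 CPM in Ctrl (median 68.0) and between 6.24 and 80.5 CPM in Lard (median 28.4). In PV the ranges were 6.81 to 49.8 CPM (median 32.4) and 3.01 to 61.1 CPM (median 12.4), and in TV 21.4 to 70.9 CPM (median 33.6) and 3.04 to 63.2 CPM (median 15.7). The diets overlapped in every valve, since some Lard rabbits kept Ctrl levels. The pooled log2 fold change was -1.33 ± 0.33 (SE; limma-voom, adjusted p = 0.358), and that of its relative NR1D2 (REV-ERB beta) was -0.73 ± 0.19 (SE; adjusted p = 0.406). On rabbit means they were -1.29 ± 0.51 and -0.69 ± 0.30 (SE; limma, unadjusted p of 0.0231 and 0.0340).

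HLF, a PAR-bZIP transcription factor that carries the clock's output, was between 70.0 and 102 CPM in MV of Ctrl (median 85.0) and between 36.1 and 72.3 CPM in MV of Lard (median 57.5). In PV the medians were 61.5 CPM in Ctrl and 39.8 CPM in Lard, and in TV 72.0 and 55.6 CPM. The MV groups overlapped only between 70.0 and 72.3 CPM. Pooled over the valves, HLF had a log2 fold change of -0.55 ± 0.11 (SE; limma-voom, adjusted p = 0.0584), with an adjusted p of 0.0402 without library L168. On rabbit means it was -0.53 ± 0.16 (SE; limma, unadjusted p = 0.00476).

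CIART, which represses the ARNTL complex, lay between 5.71 and 11.3 CPM in MV of Ctrl and between 2.00 and 7.37 CPM in MV of Lard. In TV its ranges did not overlap, with 5.75 to 10.7 CPM in Ctrl and 1.30 to 5.67 CPM in Lard, and in PV they did. In the pooled fit CIART had a log2 fold change of -0.996 ± 0.20 (SE; limma-voom, adjusted p = 0.0584), and on rabbit means -0.92 ± 0.30 (SE; limma, unadjusted p = 0.00731). Among the other members, NFIL3, a repressor of the same promoter element that HLF activates, had a pooled log2 fold change of 0.87, NPAS2 of 0.64, TEF, a relative of HLF, of -0.62 and PER2 of -0.81. Each of these 4 had an unadjusted p under 0.05 and an adjusted p above 0.9. CLOCK (0.11), CRY1 (-0.11), CRY2 (-0.35), PER1 (-0.36) and USP2 (-0.21) had an unadjusted p above 0.05.

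The clock genes varied more between rabbits than between the valves of a rabbit. The intraclass correlation of the 3 valves within a rabbit, after diet and valve were removed, was 0.956 for ARNTL, 0.943 for NR1D2 and 0.850 for NR1D1, against a median of 0.221 over all genes. Both diets held rabbits at either end. As the mean log2 CPM of its valves, centred per valve, ARNTL was -1.88 to 0.08 in 6 Ctrl rabbits and 1.10 in Ctrl rabbit L08256. In Lard it was -0.22 to 2.16 in 6 rabbits and -1.27 in rabbit L09695. These are the same 2 rabbits whose omission raised the count of called genes most, to 9 and 11.

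**Figure D2:**
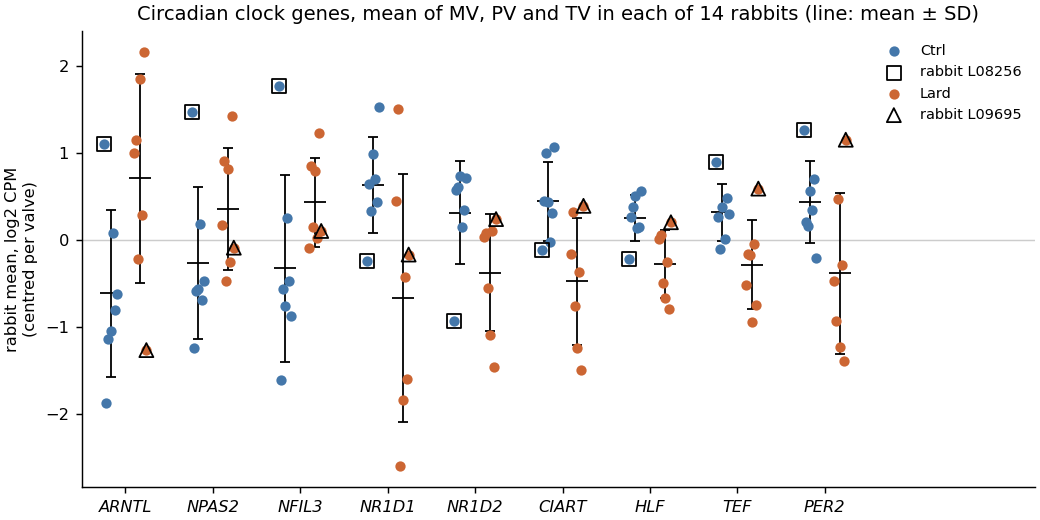
Log2 CPM, centred per valve and averaged over the valves of a rabbit, for 9 clock genes in 7 Ctrl and 7 Lard rabbits (points), with the mean and SD of each diet (lines). ARNTL, NPAS2 and NFIL3 have the higher mean in Lard and the other 6 genes in Ctrl, while Ctrl rabbit L08256 (square) and Lard rabbit L09695 (triangle) lie at the opposite end from their diet in ARNTL, at 1.10 and -1.27.

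The same rabbits gave AoV and Ao libraries, so the values of those tissues are not independent of the valves. The log2 fold change of NR1D1 was -1.63 in AoV (limma-voom, adjusted p = 0.0451) and -1.46 in Ao (adjusted p = 0.212). For CIART it was -1.28 in AoV (adjusted p = 0.0350) and -0.82 in Ao (adjusted p = 0.175). For ARNTL it was 1.403 in AoV and 1.599 in Ao, with adjusted p of 0.0981 and 0.218. In AoV 5 of the 15 clock genes passed the adjusted test and in Ao 1, NR1D2 (-0.99, adjusted p = 0.0457), against 2.62% and 1.7% of all genes.

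Among the genes higher on Lard outside the clock, MYO1E, a non-muscle myosin that links membranes to actin, was abundant in all valves. It lay between 210 and 274.7 CPM in MV of Ctrl (median 253) and between 222 and 443 CPM in MV of Lard (median 371). In PV the medians were 334 and 442 CPM and in TV 222 and 321 CPM. The groups overlapped in each valve: over the mean of the valves of a rabbit, Lard rabbit L09695 was at -0.30 on the centred log2 scale and Ctrl rabbit L08256 at 0.28, each among the other diet's rabbits. Its pooled log2 fold change was 0.50 ± 0.10 (SE; limma-voom, adjusted p = 0.0584). Its adjusted p was 0.0116 without L168, L271 and L272, and 0.0320 without L168 alone. On rabbit means it was 0.49 ± 0.14 (SE; limma, unadjusted p = 0.00324).

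ZNF605 was between 5.41 and 9.07 CPM in MV of Ctrl (median 8.06) and between 7.07 and 19.1 CPM in MV of Lard (median 15.6). In PV its medians were 8.26 and 17.3 CPM, and in TV 7.65 and 15.6 CPM. Over the means of the valves of a rabbit, 5 of the 7 Lard rabbits were above every Ctrl rabbit and 1, L09695 at -0.72, was below every Ctrl rabbit. Over the 3 valves the log2 fold change of ZNF605 was 0.75 ± 0.16 (SE; limma-voom, adjusted p = 0.0584), with an adjusted p of 0.0402 without library L168. On rabbit means it was 0.73 ± 0.22 (SE; limma, unadjusted p = 0.00397).

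The other genes named for a small p and a higher level on Lard did not pass the test either. They were the synaptotagmin SYT6 (pooled log2 fold change 0.72), the flavin monooxygenase FMO1 (0.60), the methanethiol oxidase SELENBP1 (0.47), the cell adhesion gene CNTN4 (1.63), the lysosomal sulfatase ARSG (0.51), the chromatin gene ASXL3 (0.44) and a copy of the U3 small nucleolar RNA (0.93). Reads of U3 may be shared with near-identical copies, so that value is uncertain. Those with a lower level were XKRX (-1.03), the cell cycle kinase WEE1 (-0.40), the ribosomal protein gene RPL27 (-0.51), ZNF624 (-0.30), SPAG16 (-0.41), the intermediate filament gene SYNC (-0.47), ATP23 (-0.40) and AFF3 (-0.28). RPL27 may likewise share reads with processed copies. The adjusted p of these 15 genes ran from 0.230 upwards.

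**Figure D3:**
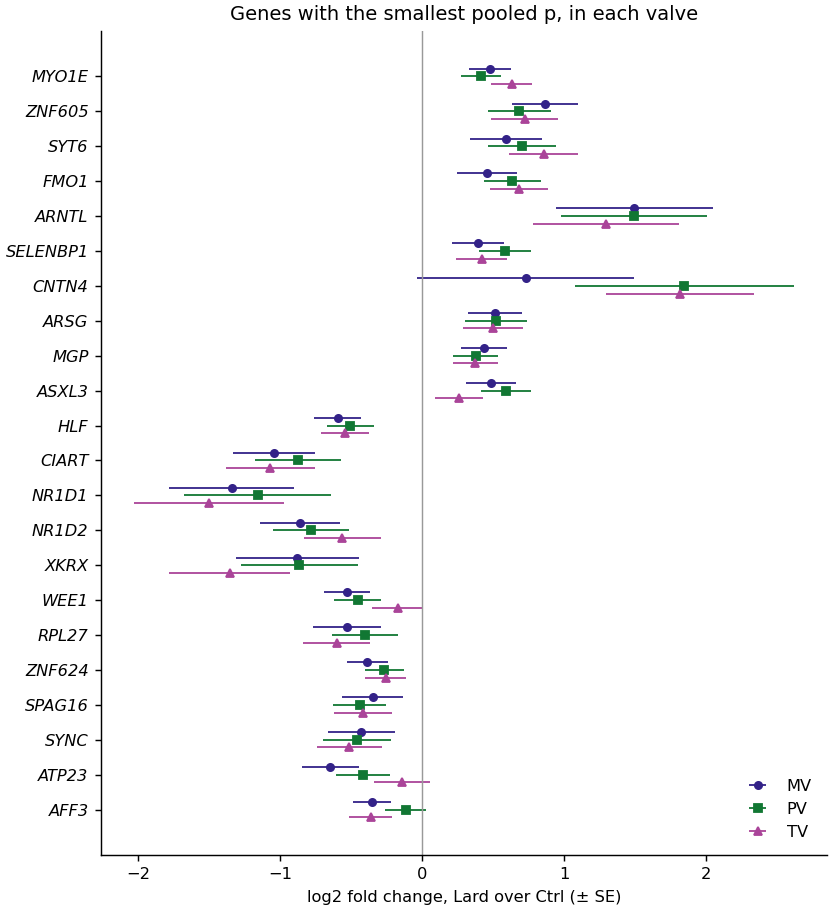
Log2 fold change of Lard over Ctrl (horizontal, with SE) in MV, PV and TV for the genes with a symbol and the smallest pooled p that the text names, U3 aside. All 3 valve estimates of a gene have the same sign, as for MYO1E (0.48 in MV, 0.41 in PV, 0.63 in TV) and HLF (-0.60, -0.51, -0.54). The genes were chosen by the p pooled over these same valves, which favours estimates of 1 sign, and the valves share rabbits.

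Of the genes of mineral formation, MGP had the smallest p in these valves. MGP, matrix Gla protein, an inhibitor of calcification secreted by interstitial and smooth muscle cells, lay between 2379 and 3337 CPM in MV of Ctrl (median 2844) and between 2491 and 5153 CPM in MV of Lard (median 4313). In PV its medians were 2726 and 3587 CPM and in TV 2527 and 3234 CPM, with overlap in each valve. MGP had a pooled log2 fold change of 0.39 ± 0.11 (SE; limma-voom, unadjusted p = 0.000691, adjusted p = 0.586), and on rabbit means 0.41 ± 0.13 (SE; limma, unadjusted p = 0.00736).

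SOST, sclerostin, a Wnt antagonist, was low, at most 5.58 CPM, with a pooled log2 fold change of -0.82 (unadjusted p = 0.0178). These were the only 2 of the 16 calcification inhibitors and Wnt antagonists tested with an unadjusted p under 0.05, beside 3.37% of all genes. The median of the list was -0.03. Of the 20 ossification genes tested, 0 were higher and 1 lower at that level, beside 1.95% higher and 1.42% lower over all genes. The lower one was BMP6, a bone morphogenetic protein, at -0.37 overall and 0.00495 in the libraries of plate 1 alone. On rabbit means BMP6 had an unadjusted p of 0.0905, and ALPL, lower on Lard, one of 0.0427 (limma). The median of the ossification list was -0.11, and it was -0.04 without library L168 and -0.06 without L168, L271 and L272.

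Of the ossification genes, SPP1 (osteopontin) had a pooled log2 fold change of -0.18 with a 95% interval of -0.54 to 0.18. On rabbit means SPP1 was -0.23 with an SE of 0.23 (limma), against a pooled SE of 0.18. RUNX2, the master factor of osteoblasts, was at most 1.32 CPM and had an interval of -0.79 to 0.87. ALPL, the alkaline phosphatase that releases phosphate for mineral, had one of -1.13 to 0.10, and the bone morphogenetic protein BMP2 one of -0.51 to 0.22. RUNX2 and ALPL were therefore measured only to within about 2-fold. SP7 and IBSP were too low to be tested. Of 10 genes of vitamin D and mineral handling tested, 0 had an unadjusted p under 0.05 (median 0.05), and CYP24A1, the enzyme that breaks vitamin D down, was too low to be tested.

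No lipid gene passed the test. In the 27 tested genes of fatty acid oxidation and PPAR targets, 1 was higher at an unadjusted p under 0.05 and none lower (1.95% and 1.42% of all genes), with a median of -0.02. PDK4 (-0.09), ANGPTL4 (-0.18), PLIN2 (-0.04) and CD36 (0.03), which are PPAR targets, had an unadjusted p above 0.05, and the 95% interval of the lipid droplet gene PLIN2 was -0.19 to 0.11.

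Of 18 genes of cholesterol synthesis and uptake, 0 had an unadjusted p under 0.05. 16 of the 18 estimates were below 0, with a median of -0.12. Of 5 LXR targets tested, 2 were higher at an unadjusted p under 0.05 (1.95% of all genes were), LPCAT3 (0.42), which remodels membrane phospholipids, and the ubiquitin ligase gene MYLIP (0.23). In the 15 genes of fatty acid synthesis, 1 was, the acyl-CoA synthetase ACSL3 (0.20). None of these 3 had an adjusted p under 0.05.

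No matrix or immune gene passed the test either. Of 39 collagens and matrix proteins and 18 matrix proteases and inhibitors, 0 had an unadjusted p under 0.05, with medians of -0.04 and 0.01. Without L168, L271 and L272 the median of the collagen list was 0.06. Of 15 valve interstitial cell genes 1 did, vimentin (VIM, 0.25), where 3.37% of all genes did. Of 20 inflammatory genes, 15 macrophage markers and 7 MHC class II genes, 0 did in the pooled test, with medians of -0.11, 0.06 and -0.14. Without library L168 the median of the inflammatory list was -0.04. On rabbit means the MHC class II gene HLA-DPB1 was at -0.76 (limma, unadjusted p = 0.0218). The macrophage marker CD68 was at 0.05 with a 95% interval of -0.20 to 0.29 and the scavenger receptor CD163 at -0.07 with one of -0.48 to 0.34. On rabbit means CD68 was 0.04 with an SE of 0.15 (limma), against a pooled SE of 0.12.

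In the interferon response, 3 of 17 genes were higher at an unadjusted p under 0.05 and 0 lower, with a median of 0.13, against 1.95% higher and 1.42% lower over all genes. Among them were the antiviral genes OASL (1.47) and OAS1 (0.79). OASL did not exceed 2.10 CPM in any library. In the neutrophil list 1 of 4 was, lactoferrin (LTF, 0.93), while S100A8, S100A9 and CSF3R, which define neutrophils, summed to at most 3.71 CPM. Of 20 immediate early genes 1 was, BTG2 (0.47). On rabbit means BTG2 had an unadjusted p of 0.0555, and DUSP1, lower on Lard, one of 0.0470 (limma). The adjusted p of OASL, OAS1, LTF and BTG2 was above 0.9.

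In the remaining lists, 0 genes had an unadjusted p under 0.05 in the pooled test. They were 13 smooth muscle and myofibroblast genes (median 0.04), 15 endothelial markers (0.14), 6 T and B cell markers (-0.19), 3 red blood cell markers (-0.22), 10 adipocyte markers (0.02) and 7 nerve and glia markers (-0.17). The stress and energy lists were 13 glucocorticoid targets (-0.05), 19 heat shock and unfolded protein genes (-0.02), 11 oxidative stress genes (0.05), 20 cell division genes (-0.07) and 18 respiratory chain genes (-0.03). In the 10 tissue identity genes, which overlap the heart muscle list, the median was -0.46, and it was -0.73 without L168 and -0.21 without L271 and L272. Without all 3 libraries the median of the adipocyte markers was 0.19 and that of the endothelial markers 0.04. Without library L168 that of the red blood cell markers was -0.05 and that of the nerve and glia markers -0.34. On rabbit means the red blood cell marker ALAS2 was at -1.06 (limma, unadjusted p = 0.00563). For ALAS2, 6 of the 7 Lard rabbits lay below every Ctrl rabbit.

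Heart muscle genes, which code for sarcomere proteins and their regulators, had wide intervals and did not pass the test. The 27 tested had pooled log2 fold changes of -1.59 to -0.03, with a median of -0.69, and none had an unadjusted p under 0.05. In MV and in TV all 27 were below 0 (medians -1.43 and -0.78), and in PV 26 of 27 were above 0 (median 0.71). Without L168, L271 and L272, 22 of 27 were above 0 in PV (median 0.23), and all 27 stayed below 0 in MV and in TV (medians -1.58 and -0.54). The summed level of the muscle list ran from 647 to 4136 CPM in MV of Ctrl and from 398 to 3587 CPM in MV of Lard. It ran from 294 to 7357 and from 270 to 4781 CPM in PV, and from 1254 to 59539 and from 424 to 46699 CPM in TV.

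The diets overlapped over nearly the whole of these ranges. In bulk tissue, fewer muscle cells and less RNA per muscle cell cannot be told apart. The median of the muscle list was -1.09 without library L168 and -0.18 without L271 and L272. With the heart muscle level as a covariate, the pooled test called 1 gene at an adjusted p under 0.05, MYO1E.

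**Figure D4:**
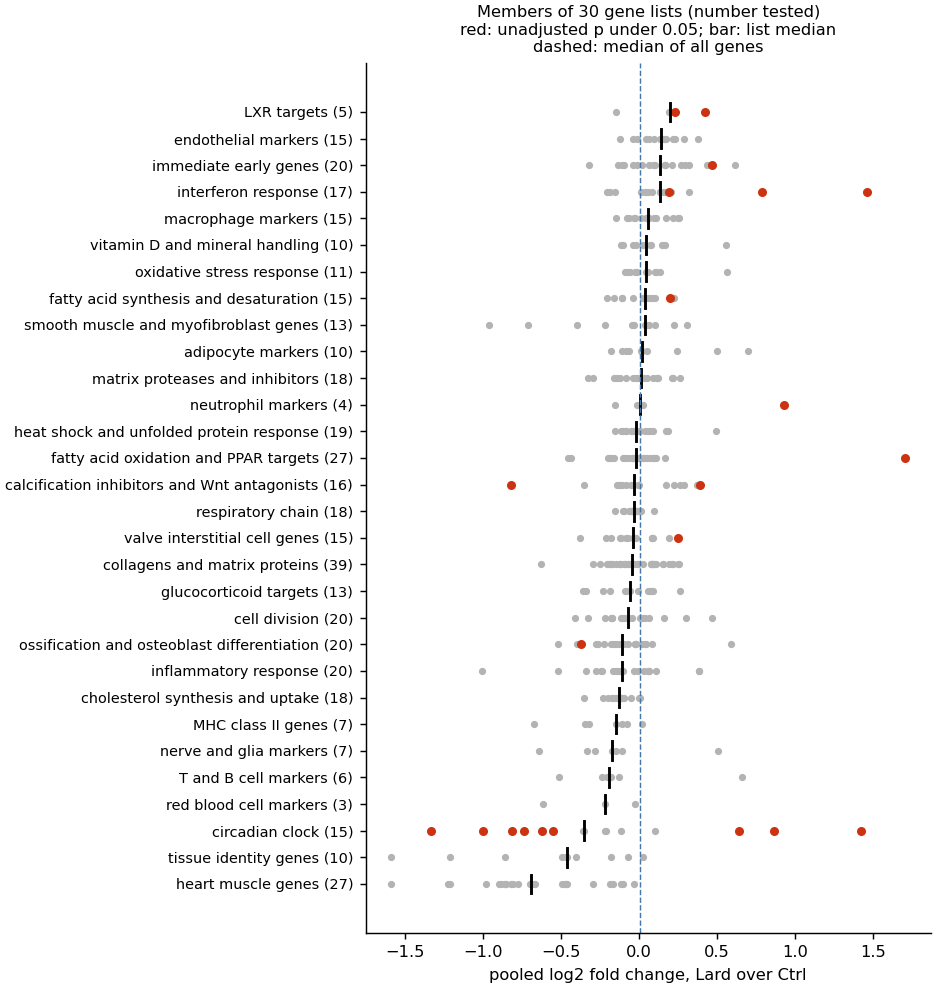
Pooled log2 fold change of each tested member (points) of 30 gene lists, with the list median (bar) and the median of all genes (dashed line at 0.00456). Clock genes spread from -1.33 to 1.42 with 9 of 15 at an unadjusted p under 0.05 (red), heart muscle genes all lie below 0 with none at that level, and the remaining lists have medians between -0.46 and 0.20.

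Within a single valve, 0 genes had an adjusted p under 0.05 in MV, PV or TV (limma-voom). At an unadjusted p under 0.05 128 genes were higher and 143 lower in MV (together 1.78% of 15250), and 517 genes in PV (3.39%) and 673 in TV (4.41%) were past that level. edgeR on each valve alone called 0 in all 3 valves, and DESeq2 called 3 in PV and 0 in MV and TV. In MV the genes with the smallest p were largely those of the pooled comparison, CIART, HLF and WEE1, with 2 copies of U3.

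In PV, HILPDA, which coats lipid droplets, was between 0.193 and 0.987 CPM in Ctrl (median 0.482) and between 0.816 and 1.55 CPM in Lard (median 1.08). The log2 fold change of HILPDA in PV was 1.27, at levels of at most 1.55 CPM. NDRG3 (0.38) and ASXL3 (0.59) were the other higher genes with the smallest p, and the small nucleolar RNA SNORD12C (-1.23), ZSCAN23 (-0.81) and SCYL3 (-0.32) the lower ones. In TV the higher genes were MYO1E (0.63), SYT6 (0.86) and CNTN4 (1.82), and the lower ones CIART (-1.07), DCBLD1 (-0.34) and FNDC5 (-1.54), the precursor of irisin. None had an adjusted p under 0.5 in its valve.

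The response to Lard was not shown to differ between the 3 valves. Tested as an interaction, the difference had an adjusted p under 0.05 in 0 genes for MV against PV, MV against TV and PV against TV, and in 0 genes in the joint F-test (limma-voom). At an unadjusted p under 0.05 there were 227 (1.49%), 455 (2.98%), 690 (4.52%) and 462 genes (3.03%). HILPDA had the smallest p for MV against PV, with a log2 fold change of -0.44 in MV and 1.27 in PV. DMC1, a meiotic recombinase, had it for MV against TV (-1.15 and 0.55) at levels of at most 1.32 CPM, and SNORD12C for PV against TV (-1.23 and 0.69). STK19 (0.70 in MV, -0.12 in TV), TP53I11 (0.69 and -1.24), MKRN3 and the U4 and U12 small nuclear RNAs were also among the first 3 of a contrast, as was ITGAE (0.27 in PV, -0.57 in TV), an integrin of lymphocytes in epithelia.

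Against the aorta, the response of the 3 valves differed in 1.59% of 16163 genes tested (limma-voom, adjusted p under 0.05), and in 12.5% at an unadjusted p under 0.05. The number of genes ran from 90 to 481 when a rabbit was left out, with 90 without Lard rabbit L09251 and 481 without Lard rabbit L09362. The Ao libraries of both diets were all on the second plate, while the valve libraries lay on both plates. The part of the plate in these differences was not tested. The valves and the aorta came from the same rabbits.

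Of the mineral genes, ACAN, aggrecan, the large proteoglycan of cartilage, had a log2 fold change of 2.80 ± 0.59 (SE) in Ao and -0.40 ± 0.31 in the 3 valves, a difference of -3.19 (limma-voom, adjusted p = 0.00178). SPP1 was 2.22 in Ao and -0.19 in the valves (difference -2.41, adjusted p = 0.00719). For RUNX2 the values were 3.12 and 0.07, and the difference, -3.04, missed the threshold (adjusted p = 0.0577). BMP6 was 2.00 in Ao and -0.30 in the valves (difference -2.30, adjusted p = 0.0464), but this difference passed in only 6 of 20 other settings and not without L168 (adjusted p = 0.0599).

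The 3 genes with the smallest p against Ao were DOCK10, a guanine nucleotide exchange factor of immune cells (1.24 in Ao, 0.10 in the valves, adjusted p of the difference 0.000463), the MHC class II chaperone CD74 (2.01 and -0.32, adjusted p = 0.00178) and the formin FMN1 (1.44 and -0.25, adjusted p = 0.00178). The chemokine CCL2 was 1.67 in Ao and -0.33 in the valves (adjusted p = 0.0254), a difference that passed in 12 of 20 other settings. VIM went the other way, -0.43 in Ao and 0.25 in the valves (difference 0.68, adjusted p = 0.00586). Of the macrophage markers, 13 of 15 were higher in Ao at an unadjusted p under 0.05 (8.58% of all genes were higher at that level there), against 0 of 15 in the pooled comparison of the valves (1.95% of all genes). The medians of the list were 1.39 and 0.06.

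**Figure D5:**
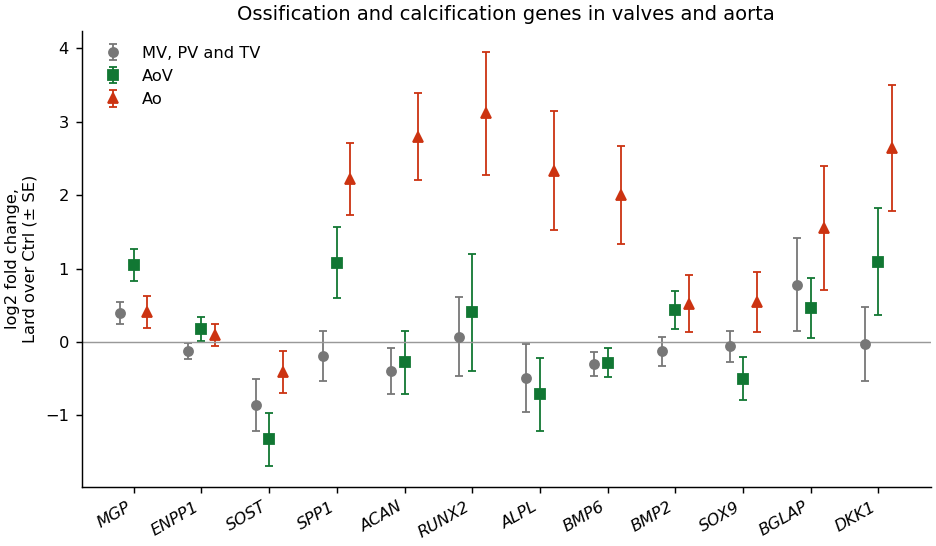
Log2 fold change of Lard over Ctrl with SE for 12 ossification and calcification genes in MV, PV and TV together (circles), AoV (squares) and Ao (triangles). SPP1, ACAN and RUNX2 lie at 2.22, 2.80 and 3.12 in Ao and between -0.40 and 0.07 in the valves, while MGP is highest in AoV at 1.04.

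With the aortic valve, the count of genes changed with the libraries of 1 rabbit. With all libraries, 0 of 16163 genes had an adjusted p under 0.05 for the difference between the 3 valves and AoV (limma-voom), and 2736 (16.9%) had an unadjusted p under 0.05. Without library L168, labelled TV of Ctrl, 608 genes passed the adjusted test, and without L168, L271 and L272 641 did. It was 0 without L168 and L166, the AoV library of the same Ctrl rabbit L08256, 0 without L166 alone and 0 without this rabbit altogether. Without L271 and L272 the number was 0, and edgeR with the rabbit as a fixed block called 0 with all libraries.

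The 3 genes with the smallest p in that contrast were NRBF2, an autophagy gene (0.57 in AoV and -0.08 in the valves), PLA2G7, the lipoprotein-associated phospholipase of macrophages (0.83 and 0.18), and the histone methyltransferase SUV39H2 (0.84 and -0.12). Each difference had an adjusted p of 0.196 with all libraries and of 0.0383 without library L168. MGP was 1.04 ± 0.22 (SE) in AoV (adjusted p = 0.0195) and 0.40 ± 0.15 in the valves, a difference with an adjusted p of 0.206. Heart muscle moved with this contrast: MYH7 had a log2 fold change of -4.39 in AoV and the muscle list a median of -3.11 there, and its part in the AoV values was not tested.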

How the data were processed

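RNA-seq was made from snap-frozen valves with a stranded total RNA kit. The authors demultiplexed with bcl2fastq 2.20, used the nf-core RNA-seq pipeline to trim, align and count reads per Ensembl gene, with OryCun2.0 as the rabbit assembly, and deposited a table of raw counts for each of 2 plates, with 29587 genes of which 14716 carry a symbol. Of the 41 libraries, 24 were on plate 1 and 17 on plate 2, with both diets of each valve on both plates.

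Genes too low for edgeR's expression filter were left out, which kept 15250 for the 3 valves and 16163 for the fit with AoV and Ao. TMM factors came from edgeR 4.0.16 and the tests from limma-voom (limma 3.58.1, R 4.3.3) with robust moderation. The valve was a factor and the rabbit the correlated unit, with a consensus correlation of 0.226, because up to 3 libraries came from 1 rabbit and edgeR's quasi-likelihood model holds no such term. edgeR and DESeq2 1.42.0 on counts summed per rabbit were run as alternatives. P-values were adjusted over all genes tested by the Benjamini-Hochberg method. Level values are CPM on TMM-scaled library sizes. Rabbit means used log2 CPM with a prior count of 2.

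Valves of the same rabbit deviated together: the median correlation of deviations was 0.272 for MV with PV, 0.259 for MV with TV and 0.272 for PV with TV, against -0.0183, -0.00998 and -0.0247 between different rabbits. On simulated counts for the pooled comparison, with 200 of 15250 genes changed, the test recovered 83% of 2-fold and 98% of 4-fold changes, with 7 false among 188 calls. The simulation gave all genes the same share of variance within a rabbit, as the test assumes, and changed only genes above a minimum mean count. These rates were not measured for genes whose valves agree more closely within a rabbit, such as ARNTL, or for changed genes with fewer counts.

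The genes named are the 12 higher and 12 lower genes with a symbol and the smallest pooled p, 3 in each direction per valve, 3 per contrast between valves or with AoV and Ao, the 2 members of each list with the smallest pooled p, and a set of genes of lipid, mineral and immune biology. Some of these genes are not reported here. The members and lists were chosen with earlier results of these data known. Columns of other tissues and treatments were used only for the fits that name them. Counting errors cover sampling of reads only, since molecules were not counted by identifiers. Alternatives covered the tool, filter, normalisation, plate, sample weights, a heart muscle covariate, the treatments fitted and each rabbit left out. The omission of libraries L166, L168, L271 and L272, and the limma fit on 1 mean of centred log2 CPM per rabbit, were chosen after seeing the data.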

Additional observations from a re-analysis of the deposited data

Results flagged for a closer look

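Among 104 groups of rabbits or libraries examined for a value far from the rest, 10 (9.62%) held one, where chance gives about 1 in 20 if the groups are independent, and these groups share rabbits. Of these, 5 were rabbit means of Ctrl rabbit L08256. On the log2 CPM scale centred per valve, SYT6 was 0.56 in this rabbit against -0.67 to -0.22 in the other Ctrl rabbits, and LTF, the gene of lactoferrin, was 0.80 against -0.83 to -0.17. NR1D2 was -0.93 against 0.15 to 0.74, WEE1 was -0.49 against 0.15 to 0.42, and ENPP1, which makes the mineral inhibitor pyrophosphate, was -0.44 against 0.00 to 0.29. This rabbit has no MV library, and 1 of its 2 libraries is L168.

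In Lard, SELENBP1 was 0.73 in rabbit L09695 against 0.06 to 0.24 in the others, and SYNC was -1.14 in rabbit L09251 against -0.30 to 0.14. The PV library L234 of Lard held 44450100 counts against 13980400 to 20904700 in the other PV libraries of Lard. The mean log2 level of the heart muscle genes was 4.14 in the library labelled TV of Ctrl (L168) against 7.67 to 9.58, and 1.91 in the library labelled TV of Lard (L272) against 6.56 to 9.13.

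The response to Lard differed between the 3 valves and Ao, by the interaction test in limma-voom, for 8 of the named genes. The log2 differences were -1.14 for DOCK10, -2.33 for CD74, -1.68 for FMN1, -3.19 for ACAN, -2.41 for SPP1, -2.002 for CCL2, -2.30 for BMP6 and 0.68 for VIM. All Ao libraries were on the second plate, and the part of the plate in these differences was not tested.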

How the results depend on the processing

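The pooled count of genes at an adjusted p under 0.05 was 0 with limma-voom on all libraries. It was 0 with limma on rabbit means and with edgeR on sums per rabbit, 2 with DESeq2 on those sums, 11 with edgeR treating libraries as independent, 3 without a low-count filter, 1 with plate as a covariate, 3 in plate 1 alone, 2 with all 4 treatments, 14 with sample weights, 1 with a heart muscle covariate, 1 without L168, L271 and L272 and 5 without L168. With a fold over 1.5 also asked, these were 0, 0, 2, 9, 1, 1, 2, 1, 7, 0, 0 and 2. Leaving out each rabbit gave 0 to 11 genes, and 0 to 11 with the fold. The rabbits that raised it were L08256 (9), L08719 (1), L09362 (5) and L09695 (11). MYO1E stayed between 0.45 and 0.60 over 31 settings, with an adjusted p under 0.05 in 10 of them.

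DESeq2 on PV alone called 3 genes, 2 of them past the fold. Leaving out each rabbit gave 0 to 1 genes in MV (1 without L08313 or L09695), 0 in PV, 0 to 1 in TV (1 without L08256), 0 in each contrast between valves, 0 to 2 against AoV (2 without L08286) and 90 to 481 against Ao. Against AoV 608 genes passed without L168 and 641 without all 3 libraries, but 0 without L166 or without L166 and L168, and the cause was not tested. Against Ao edgeR with a fixed rabbit block called 522. BMP6 was 0.00495 in plate 1 alone, MYL4 was 0.73 with edgeR on independent libraries and 0.12 with the heart muscle covariate, and NPPA was 0.043 with edgeR on independent libraries, each the opposite sign of the pooled value. The cause was not tested.

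No paired analysis was possible because Ctrl and Lard came from different rabbits. At 1 CPM the counting error of a single library reached 26.7%, which limits genes such as RUNX2.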

Other observations

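The clock genes were also measured in the valves of rabbits on the other treatments, a cholesterol diet with vitamin D2 (CHT, 6 rabbits) and irradiation with that treatment (IR/CHT, 7 rabbits), which are given as values only. The median of rabbit means, on the log2 CPM scale centred on the Ctrl mean of each valve, was -0.10 for ARNTL in Ctrl, 1.70 in Lard, 0.96 in CHT and -0.35 in IR/CHT. For NR1D1 the values were -0.03, -1.10, 0.99 and 0.40, so that both genes had a higher median in CHT than in Ctrl. For PER2 they were -0.05, -0.86, -1.43 and 0.04, for CIART -0.05, -0.85, -0.41 and 0.28, and for HLF -0.02, -0.54, -0.39 and -0.37.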
